A study of Anastrepha ludens with 9 samples.

Results

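The dominant genes of the early embryo of Anastrepha ludens, the Mexican fruit fly, are described here stage by stage. A dominant gene is an assembled gene whose level averaged 1000 TPM or more over the 3 libraries of a stage and whose longest contig was under 10000 bases. TPM is a length-corrected transcript level that sums to 1000000 in each library. By this rule 107 of 45798 assembled genes were dominant in syncytium embryos, 107 of 76713 at cellularization and 114 of 75619 at gastrulation, 328 of 198130 in all. The members were chosen by their level, so their levels are a description. In the main stage comparisons, each tested share was read in a library that took no part in choosing its genes.

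Whole embryos, kept in water at 25 °C, were collected from 0 to 9 h (syncytium), 9 to 18 h (cellularization) and 18 to 30 h (gastrulation), with 3 libraries of total RNA per stage. No strain, treatment or sex is given in the labels, and the embryos per library are not stated. The libraries held between 28099549 and 51201882 estimated counts. Reads of each stage were assigned to contigs of an assembly made for that stage, so gene names do not carry over between stages. Wherever stages are compared, the assembly cannot be told apart from the stage. A contig is an assembled transcript sequence, and the contigs that the assembler Trinity places under one gene name were summed here.

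In insects such as Drosophila melanogaster, the egg is loaded with maternal RNA, on which the nuclear divisions of the syncytium run. Much of that RNA is later degraded while the embryo's own genome is switched on, around the time when membranes enclose the nuclei. Germ layers then form at gastrulation. The most abundant RNAs of an embryo therefore can include maternal stores as well as products of the embryo's own transcription. The contig names are labels given by the assembler and are paired with no gene symbols, and no sequences of these contigs were used here. Roles, pathways and the embryo's cell types therefore could not be read. In whole embryos, fewer cells of a type and less RNA per cell cannot be told apart.

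The dominant genes formed a steep series at each stage, led by a few genes above 10000 TPM. The syncytium had 5 such genes, cellularization 9 and gastrulation 8. Most dominant genes were far lower, with 72, 57 and 73 of them between 1000 and 2000 TPM. The median dominant gene had 1701 TPM in syncytium embryos, 1866 in cellularization and 1654 in gastrulation embryos, and the highest one was 16.5, 20.8 and 22.4 times that median. The summed level was most concentrated at cellularization, where 9 genes made up 50% of the TPM of all dominant genes, against 16 in the syncytium and 11 at gastrulation. A gap set these 9 apart: the ninth gene at cellularization had a mean of 10809 TPM and the tenth 5233.

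**Figure D1:**
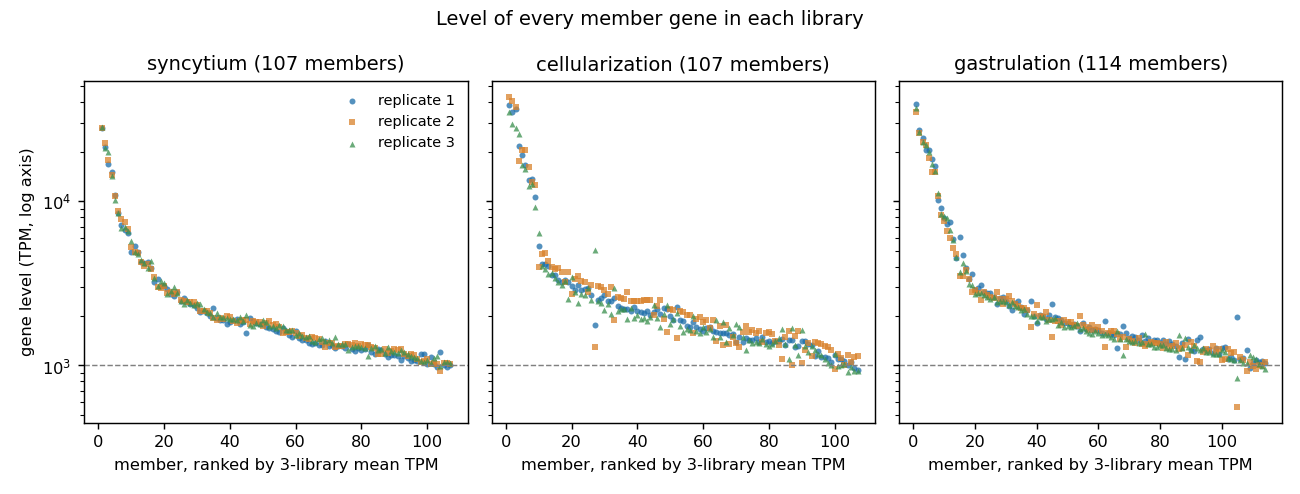
TPM of each dominant gene (log axis) against its rank by 3-library mean, with 1 point per library and the dashed line at 1000 TPM. The series starts at 28103 TPM for the syncytium, 38872 for cellularization and 36959 for gastrulation, and the 3 libraries lie closest together in the syncytium.

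The leading gene of the syncytium, TRINITY_DN708_c0_g1, had 28043, 27912 and 28352 TPM in replicates 1 to 3, a coefficient of variation (SD as a percent of the mean) of 0.805%. Almost all of it came from a single contig of 2610 bases, which held 99.3% of the gene's TPM. The gene took 3.87% ± 0.0567 of the estimated counts (SD, n = 3). TRINITY_DN10211_c0_g1 followed with 21301, 22564 and 21018 TPM. It was assembled as 1 contig of only 345 bases and took just 0.229% ± 0.0135 of the counts (SD, n = 3). The third gene, TRINITY_DN3705_c0_g1, had 16933, 17894 and 19928 TPM, carried by a contig of 1414 bases. The order of these 3 genes was the same in every syncytium library.

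At cellularization the leading gene was short. TRINITY_DN2771_c0_g2 had 38293, 43380 and 34942 TPM, with a leading contig of 411 bases, and it took 0.619% ± 0.101 of the counts (SD, n = 3). The next 2 genes changed places between libraries. TRINITY_DN11_c0_g1 had 34770, 40622 and 29631 TPM, and TRINITY_DN42_c0_g1 had 36598, 37352 and 27973 TPM. In counts, which are not divided by length, TRINITY_DN11_c0_g1 stood first of these with 5.78% ± 1.07, and TRINITY_DN42_c0_g1 took 3.85% ± 0.709 (SD, n = 3). All 3 genes were highest in replicate 2 and lowest in replicate 3.

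The gastrulation series was again headed by short transcripts. TRINITY_DN123_c0_g2 had 39026, 35033 and 36818 TPM, and a contig of 658 bases held 93.6% of it, although the longest contig of the gene has 5331 bases. TRINITY_DN2193_c0_g3 had 27252, 26147 and 26461 TPM on 1 contig of 337 bases. TRINITY_DN8657_c1_g1 had 24428, 23102 and 22952 TPM on 1 contig of 278 bases. Their order was the same in all 3 libraries. The fourth gene, with a mean of 21539 TPM, was also short, at 328 bases. By counts the first of the 10 leading genes was a long one, the fifth by TPM, with a single contig of 2779 bases and 3.29% ± 0.234 of the counts (SD, n = 3).

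The dominant genes were shorter than genes of lower level when measured by the longest contig of each gene. Syncytium members had a median longest contig of 1068 bases, cellularization members 1303 and gastrulation members 1345. Genes averaging 100 to under 1000 TPM had medians of 1955, 2015 and 1985 bases. Genes whose longest contig was under 500 bases made up 12.1%, 10.3% and 7.89% of the dominant genes, against 3.25%, 4.49% and 2.92% of the genes at 100 to under 1000 TPM. TPM are obtained by dividing by length, so length and level are not independent measures, and no test was made of this difference. Each stage has 1 assembly, so the lengths have no replicate error.

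The longest contig, however, was often not the one that carried the level. Among dominant genes with several contigs, the leading contig (the one with the most TPM) was not the longest in 44 of 59 in the syncytium, 63 of 75 at cellularization and 76 of 85 at gastrulation, or 74.6%, 84.0% and 89.4%. Among all genes with several contigs and a mean of 10 TPM or more, the shares were 67.3%, 70.1% and 67.9%. The leading contig was under 50% of the length of the longest in 6, 13 and 15 dominant genes. Measured by the leading contig, the median was 1001 bases for the syncytium, 995 for cellularization and 911.5 for gastrulation. The order of the stages was thus the opposite of that by the longest contig.

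**Figure D2:**
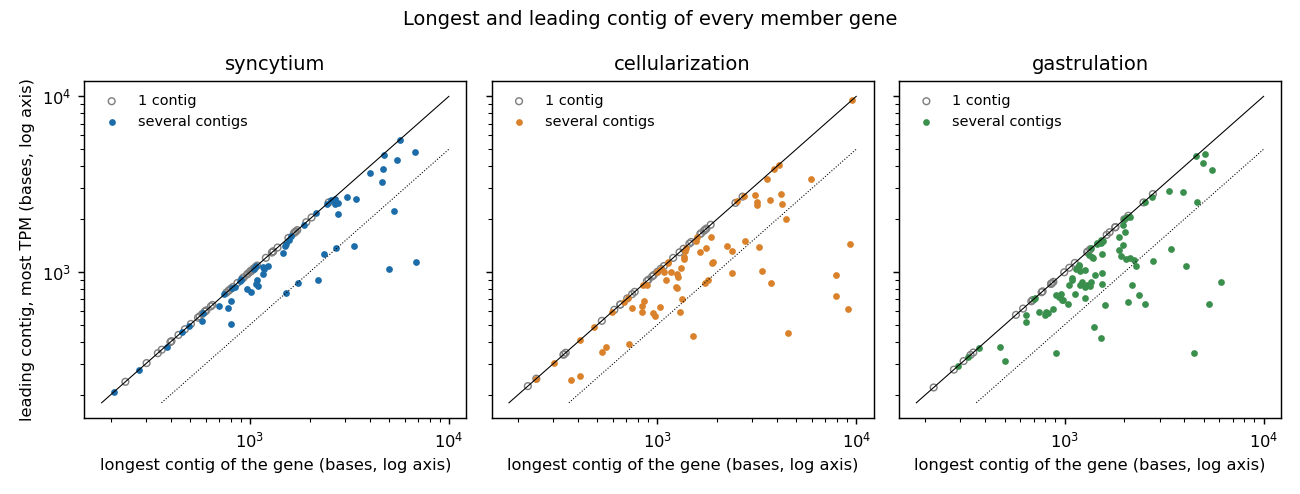
Length of the leading contig against the longest contig of each dominant gene, both in bases on log axes, with open points for genes of 1 contig. The solid line marks equal length and the dotted line a leading contig at 50% of the longest; 6, 13 and 15 genes lie below the dotted line.

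The longest members show what this means for single genes. TRINITY_DN506_c0_g1 has the longest contig of the syncytium's dominant genes, 6870 bases, but its leading contig of 1140 bases held 93.7% of its 1811 TPM. The longest contig at gastrulation, 6137 bases, belongs to TRINITY_DN1069_c0_g2 and held 2.07% of that gene's TPM, while contigs of 875 and 886 bases held 69.4% and 28.1%. At cellularization, in contrast, the level of TRINITY_DN718_c0_g1 did rest on its longest contig, of 9515 bases, with 96.5% of the gene's TPM. This gene had 2208, 1603 and 2331 TPM and took 1.21% ± 0.183 of the counts (SD, n = 3), more than the gene with the highest TPM of that stage. The gene TRINITY_DN11_c0_g1 was mixed. A contig of 962 bases held 58.3% of its TPM but 1.04% of the library's counts, and a contig of 7320 bases held 17.7% of its TPM and 2.82% of the counts.

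The shortest members show how far TPM rests on the effective length. TRINITY_DN1423_c0_g2 of the syncytium has 2 contigs of 207 bases, and it had 3053, 2950 and 3251 TPM. TRINITY_DN6543_c0_g1 of cellularization has 224 bases and had 2453, 3019 and 2052 TPM. TRINITY_DN4207_c0_g1 of gastrulation has 220 bases and had 1965, 1870 and 1941 TPM. The effective length, by which kallisto divides, was only 31.2%, 33.4% and 37.6% of the length of their leading contigs. Division by it rather than by the full length raises their TPM the most. Even these genes were well covered by reads. The lowest count of any dominant gene in any library was 2304, at which counting error alone gives a coefficient of variation of 2.08%.

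The level of a dominant gene rested mostly on 1 contig. A single contig made up 48, 32 and 29 of the dominant genes, or 44.9%, 29.9% and 25.4%, against 37.0%, 34.9% and 31.4% of the genes at 100 to under 1000 TPM. Where a dominant gene had several contigs, the median share of the leading one in the gene's TPM was 93.7%, 98.3% and 97.5%. It was the same contig in all 3 libraries in 58 of 59, 72 of 75 and 82 of 85 genes (98.3%, 96.0% and 96.5%). Over all genes with several contigs and a mean of 10 TPM or more this was so in 82.4%, 80.9% and 81.1%. One dominant gene, in the syncytium, had 15 contigs or more (16 contigs, the leading one with 43.4% of its TPM). Dominant genes with 1 contig of 1000 to under 2000 bases numbered 19, 14 and 10.

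Some dominant genes carry names of the same Trinity cluster, that is, they were assembled from linked sequence. This was so for 14 genes at each stage. At gastrulation the gene with the highest level, TRINITY_DN123_c0_g2, shares its cluster with the eighth. At cellularization the sixth and the seventh gene share a cluster, and so do the first and the twelfth. How kallisto divided reads between such genes was not tested, so the split of level between them is uncertain.

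Together the dominant genes held a large part of the TPM in the syncytium and more at the later stages. Their share was 30.2%, 30.8% and 30.9% of the TPM in the syncytium libraries, 39.9%, 42.7% and 37.6% at cellularization and 40.2%, 37.7% and 38.5% at gastrulation. Of the estimated counts they held less, with 22.4%, 23.3% and 23.2% in the syncytium, 29.8%, 32.5% and 27.3% at cellularization and 26.8%, 24.1% and 24.9% at gastrulation. The stages differed mainly in the 10 leading genes, which held 12.8% ± 0.192, 20.9% ± 1.72 and 18.8% ± 0.622 of the TPM. The remaining dominant genes held 17.9% ± 0.212, 19.2% ± 0.878 and 20.04% ± 0.692 (SD, n = 3 each). The shares of these 2 groups are descriptions, because TPM chose the members.

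To compare the stages on values that had not chosen the genes, the dominant genes were chosen anew on 2 libraries and their share was read in the library left out. The left-out share of TPM was 30.6% ± 0.343 for the syncytium, 40.3% ± 2.38 for cellularization and 38.7% ± 1.04 for gastrulation (SD, n = 3; exact permutation test over the 3 stages, p = 0.0143, adjusted over 6 such tests 0.0143). All 3 cellularization libraries and all 3 gastrulation libraries lay above all 3 syncytium libraries, by 9.66 and 8.06 percentage points in the mean. For each of these pairs the two-sided exact permutation p was 0.1, the smallest that 3 against 3 libraries allow (adjusted over 6 pairs 0.12). Gastrulation and cellularization overlapped, with a difference of -1.60 percentage points (exact permutation p = 0.4, adjusted 0.4). This difference depended on single libraries: it was -0.237 without cellularization replicate 2, -0.906 without gastrulation replicate 2, -2.43 without gastrulation replicate 1 and -3.17 without cellularization replicate 3. The stages no longer overlapped in the last case, nor at a threshold of 2000 TPM, where the difference was -3.29 (exact permutation p = 0.1 in both). At 500 TPM gastrulation lay 5.13 percentage points above the syncytium. The libraries of a stage served to choose genes for each other, so the 3 values of a stage are not fully independent.

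By estimated counts the left-out share was highest at cellularization. Syncytium libraries gave 22.9% ± 0.527, cellularization libraries 30.0% ± 2.56 and gastrulation libraries 25.0% ± 1.06 (SD, n = 3; exact permutation p = 0.00357, the smallest the design allows, adjusted 0.00536). Cellularization exceeded the syncytium by 7.10 percentage points, and gastrulation lay 5.02 below cellularization (a difference of -5.02) and 2.08 above the syncytium. No pair of stages overlapped (exact permutation p = 0.1 each, adjusted 0.12). Without gastrulation replicate 1 the difference between gastrulation and the syncytium was 1.23 percentage points. With a threshold of 500 TPM the difference between gastrulation and the syncytium was 0.265 percentage points, and with 2000 TPM it was 1.07, both with overlapping libraries (exact permutation p = 0.9 and 0.2). The genes chosen on 2 libraries mostly passed in the third too, with 104 of 107, 106 of 107 and 105 of 106 in the syncytium, 105 of 110, 103 of 109 and 102 of 111 at cellularization, and 109 of 111, 108 of 114 and 111 of 115 at gastrulation.

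**Figure D3:**
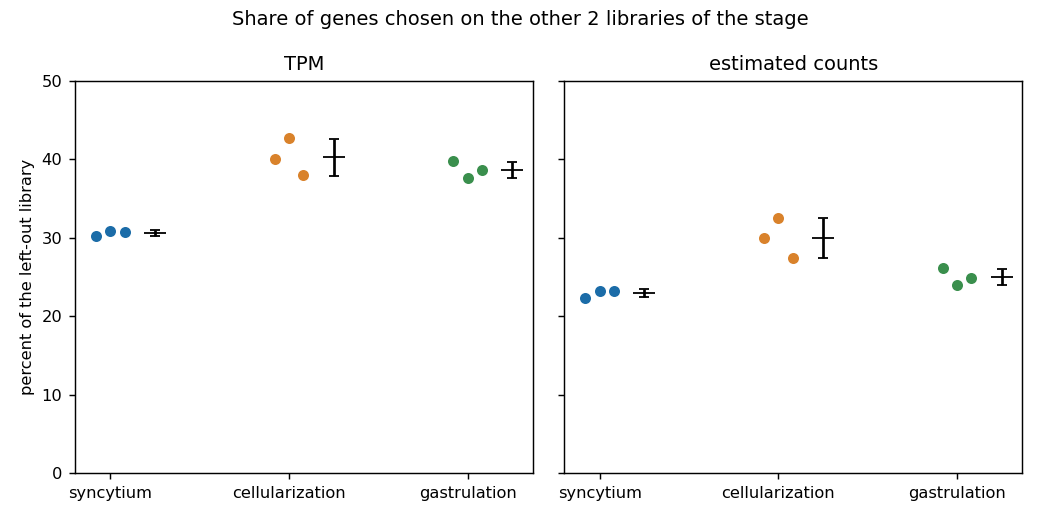
Percent of the TPM (left) and of the estimated counts (right) of each library held by genes that reached 1000 TPM in the mean of the other 2 libraries of its stage, with the mean and SD of 3 libraries beside the points. By TPM both later stages lie above the syncytium; by counts cellularization (27.5% to 32.6%) lies above gastrulation (24.0% to 26.1%), which lies above the syncytium (22.3% to 23.3%).

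Short genes and long genes both took a larger part at the later stages when genes were classed by their longest contig. Genes under 500 bases held 5.09% ± 0.0409 of the left-out TPM in syncytium libraries, 7.15% ± 0.593 in cellularization libraries and 8.58% ± 0.0727 in gastrulation libraries (SD, n = 3; exact permutation p = 0.00357, adjusted over 6 tests 0.00536). Genes of 2000 bases and over held 10.2% ± 0.00931, 16.4% ± 0.998 and 13.9% ± 0.715 (exact permutation p = 0.00357, adjusted 0.00536). Genes of 500 to under 1000 bases held 7.03%, 8.30% and 6.37% (exact permutation p = 0.00357, adjusted 0.00536). Genes of 1000 to under 2000 bases held 8.25%, 8.44% and 9.81% (exact permutation p = 0.0107, adjusted 0.0129).

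Much of the long class rested on shorter contigs. Of the dominant genes in that class, 6 of 25 in the syncytium, 12 of 28 at cellularization and 15 of 29 at gastrulation had a leading contig under 2000 bases. When each contig was classed by its own length, an alternative chosen after the values were seen, contigs of 2000 bases and over held 8.18% ± 0.0223 of the left-out TPM in syncytium libraries, 9.28% ± 0.391 in cellularization libraries and 6.72% ± 0.296 in gastrulation libraries (SD, n = 3; exact permutation p = 0.00357). Cellularization was still above the syncytium in all libraries, by less than when genes were classed by their longest contig. Gastrulation was below the syncytium in all libraries, the reverse of the order by longest contig. Contigs of 500 to under 1000 bases held 8.61% ± 0.105, 14.8% ± 1.49 and 13.6% ± 0.457 (exact permutation p = 0.00714), and contigs under 500 bases 5.16% ± 0.0376, 8.36% ± 0.619 and 9.79% ± 0.116 (exact permutation p = 0.00357). Contigs of 1000 to under 2000 bases held 8.67%, 7.89% and 8.55% and did not pass (exact permutation p = 0.0607).

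The counts behind the short genes were few. Dominant genes under 500 bases held 0.557% ± 0.0186, 0.923% ± 0.126 and 0.926% ± 0.0129 of the counts, and those of 2000 bases and over 15.1% ± 0.231, 20.7% ± 1.74 and 15.8% ± 0.982 (SD, n = 3). When TPM were recomputed with the full contig length in place of the effective length, the TPM share of the dominant genes under 500 bases was 3.24% for the syncytium, 4.75% for cellularization and 5.57% for gastrulation, where the deposited TPM gave 5.09%, 7.12% and 8.52%. The order of the stages was the same on both scales. Of the dominant genes, 103 of 107, 103 of 107 and 109 of 114 also passed 1000 TPM on this scale. They are 96.3%, 96.3% and 95.6% of the dominant genes and 96.3%, 90.4% and 97.3% of the genes that passed there.

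**Figure D4:**
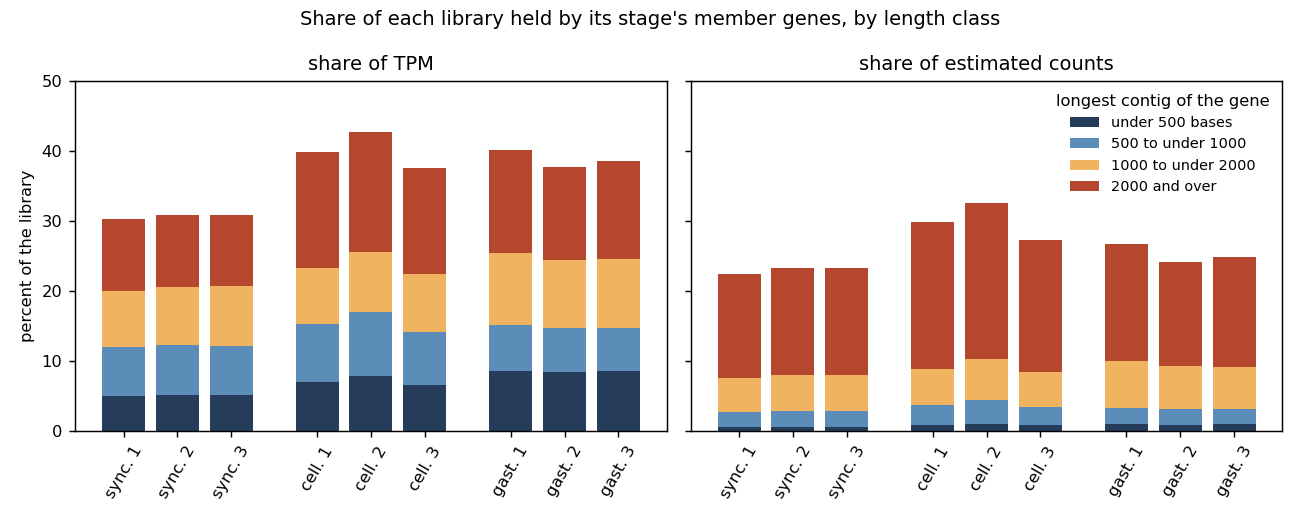
Stacked bars of the percent of each library's TPM (left) and estimated counts (right) held by the dominant genes of its stage, by the longest contig of the gene; sync., cell. and gast. are the stages and the numbers the replicates. Genes under 500 bases form a visible part of the TPM (5.09%, 7.12% and 8.52% in the mean) and a thin one of the counts (0.557%, 0.923% and 0.926%).

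The replicate spread of the dominant genes was low in the syncytium and at gastrulation and wider at cellularization. Over 3 libraries the median coefficient of variation was 3.65% for the syncytium, 10.5% for cellularization and 4.38% for gastrulation. It was 4.11%, 10.9% and 7.52% for genes of 100 to under 1000 TPM, and 7.50%, 16.8% and 10.1% for genes of 10 to under 100 TPM. For shares of the estimated counts in place of TPM, the median was 4.42%, 14.6% and 5.84% for dominant genes and 4.36%, 10.1% and 7.91% for genes of 100 to under 1000 TPM. The dominant genes thus varied less than the next lower genes on both scales at gastrulation, but more by counts at cellularization, where TPM gave close values. Members are not replicates, and no test was made. The median was 2.11% for the syncytium without replicate 1 and 5.09% for cellularization without replicate 2.

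No dominant gene of the syncytium differed 1.5-fold or more between its highest and lowest library, while 7 of 107 did at cellularization (6.54%) and 4 of 114 at gastrulation (3.51%). Among all genes with a mean of 10 TPM or more, the shares were 8.48%, 34.0% and 15.3%. Among genes of 100 to under 1000 TPM they were 1.22%, 20.2% and 5.76%. The highest library was within 1.1-fold of the lowest in 77 of 107 dominant genes of the syncytium, 9 of 107 at cellularization and 63 of 114 at gastrulation. No share among other genes was computed for the 1.1-fold limit, so these counts cannot set the dominant genes apart.

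**Figure D5:**
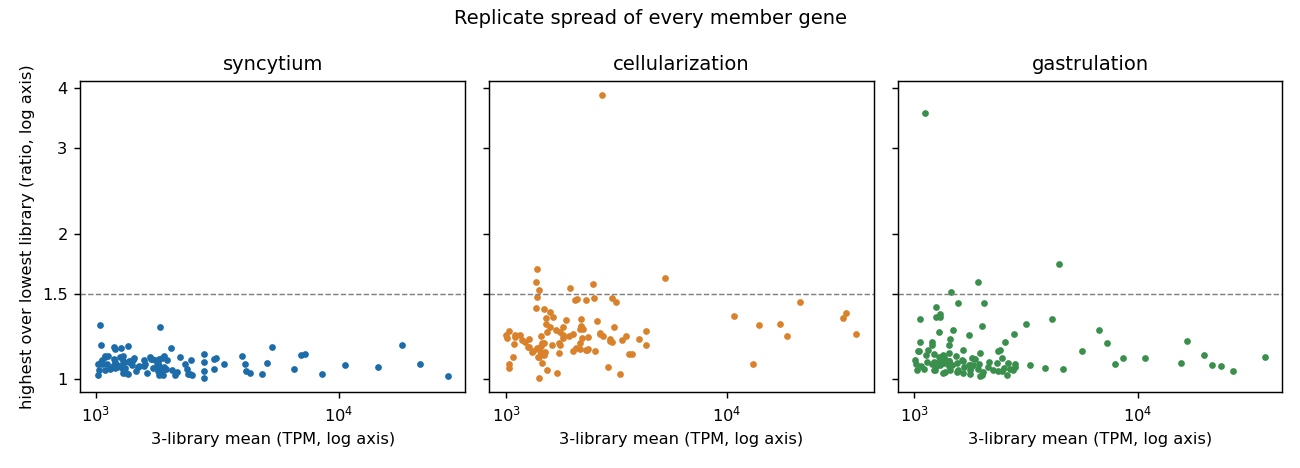
Ratio of the highest to the lowest of the 3 libraries for each dominant gene against its mean TPM, both on log axes, with the dashed line at 1.5. No gene of the syncytium, 7 of cellularization and 4 of gastrulation lie above the line, and 2 genes stand far above it at 3.86 and 3.55.

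The 2 genes that stood apart were each set by 1 library. TRINITY_DN6558_c1_g2 of cellularization, a single contig of 1295 bases, had 1773, 1304 and 5034 TPM, so replicate 3 was high, and its rank was 55, 91 and 11. TRINITY_DN4871_c0_g1 of gastrulation had 1974, 557 and 840 TPM. It was high in replicate 1, where it ranked 44, and under 1000 TPM in the others, where it ranked 186 and 133, so that its membership rests on replicate 1. The most variable dominant gene of the syncytium, TRINITY_DN30_c6_g2, had 1204, 931 and 988 TPM, a ratio of 1.29.

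At cellularization the dominant genes moved together between libraries. Replicate 2 held the highest value of 77 of 107 dominant genes (72.0%) and replicate 3 the lowest of 70. For the lowest library no share over all genes was computed, so such counts describe the dominant genes only. Only 10.3% of the dominant genes were highest in replicate 1 and 17.8% in replicate 3. Among all genes with a mean of 10 TPM or more, 20.5% were highest in replicate 1, 16.9% in replicate 2 and 62.7% in replicate 3. TPM sum to a fixed total, so a library in which dominant genes are high leaves less for the rest, and these counts are not independent of each other. A smaller set of 27 dominant genes ran the other way and was lowest in replicate 2. It includes all 7 genes with a ratio of 1.5 or more, for example the tenth gene, TRINITY_DN3735_c0_g4, with 5363, 3950 and 6386 TPM.

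The libraries of the other stages also differed in this way. In the syncytium 69 of 107 dominant genes were lowest in replicate 1, a count again without a share over all genes. Of the dominant genes, 17.8%, 36.4% and 45.8% were highest in replicates 1 to 3. Of all genes at 10 TPM or more, 42.2%, 30.1% and 27.7% were highest in these libraries. At gastrulation 57.0%, 30.7% and 12.3% of the dominant genes were highest in replicates 1 to 3, with 65 of 114 in replicate 1. Of all genes at 10 TPM or more, 33.8%, 36.4% and 29.7% were.

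The ranking was stable at the top and looser towards the threshold. The same gene stood first in every library of its stage, and 9, 9 and 10 genes were among the 10 highest in every library. Among the 50 highest, 47, 43 and 44 genes were so in every library. Exactly the same rank in all 3 libraries was held by 7, 2 and 6 of the 10 leading genes. A gene's rank moved over the libraries by a median of 2 places among the 50 leading genes of the syncytium, by 4.5 at cellularization and 2 at gastrulation, and by 5, 15 and 9 places among the others. For ranks 1 to 10, 11 to 50 and lower, the median coefficient of variation was 3.74%, 2.87% and 3.77% in the syncytium. It was 14.8%, 10.8% and 9.79% at cellularization and 4.61%, 4.07% and 4.60% at gastrulation. At cellularization the smaller moves in rank at the top thus did not go with a lower spread in level. In the syncytium and at gastrulation the spread of ranks 11 to 50 was lower than that of the lower ranks. The spread of ranks 1 to 10 was there close to that of the lower ranks. Spearman coefficients across the dominant genes, between libraries of a stage, were 0.979 to 0.988 in the syncytium, 0.842 to 0.962 at cellularization and 0.929 to 0.964 at gastrulation. The lowest, at cellularization, was between replicates 2 and 3. These are descriptions across genes, which share libraries and are not independent.

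The threshold divided genes of nearly equal level. In the syncytium the nearest genes inside had means of 1022 and 1022 TPM and the nearest outside 982 and 970. At cellularization they had 1000.3 and 1009.5 TPM inside and 996 and 991 outside, and at gastrulation 1011 and 1021 inside and 988 and 978 outside. Of the dominant genes, 104 of 107, 101 of 107 and 107 of 114 reached 1000 TPM in every library. A further 3, 21 and 8 genes reached it in some library but not in the mean. The limit on length removed no gene, since genes that have a contig of 10000 bases or longer reached at most 818, 300.2 and 159 TPM in the mean.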

How the data were processed

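RNA of whole embryos was measured in 9 libraries, 3 per stage, grouped and numbered by the sample labels. For each contig the deposited tables hold its length and effective length in bases, its TPM and its estimated count. The authors computed TPM and estimated counts using kallisto 0.44.4, as the submitters' processing notes say. FastQC 0.11.7 and MultiQC 1.5 are named there too. Deposited estimated counts of 1000000 or more carry 3 digits. The sources used here do not give the assembler version, the trimming, the strand or the options of kallisto.

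Contigs were summed per Trinity gene with pandas 2.3.3 and numpy 2.4.6. Shares, ranks, lengths and coefficients of variation were computed per stage. Left-out shares were compared by exact permutation tests, two-sided for pairs, with Benjamini-Hochberg adjustment over 6 tests over the stages and over 6 pairs. The computation of left-out shares was run on simulated data with a gene set shared by all groups and independent noise per gene. Those settings differ from these data, so that run says nothing about false positives here. No gene was tested between stages, because each stage has its own assembly, so no count model was used. The p-values measure the spread between these libraries, which the series' design text calls biological replicates. Replicate numbers are not said to mark a shared collection, and genes cannot be matched between stages, so pairing could not be checked.

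The genes, classes and tests were chosen with earlier results of these data known. The genes named are, per stage, the 3 highest, the most variable, the shortest and the longest, and the nearest to the threshold. Others, such as the fifth gene at gastrulation, were chosen after their values were seen. Alternatives were other thresholds, groupings of contigs, full length, a filter on low counts, leaving out each library and a replicate block.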

Additional observations from a re-analysis of the deposited data

How the results depend on the processing

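The limit on length removed no gene, so dropping it could change nothing. Under the other alternatives, 104 of 106 tests over the 3 stages stayed on the same side of 0.05. Of 141 descriptive values, 98 stayed within the limit set for them. The limit was 1.5-fold for numbers of genes and the SD between libraries for shares. For coefficients of variation it was the SD of the medians found on leaving out each library, which are themselves among the alternatives. For Spearman coefficients it was the SD over pairs of libraries. The pairs of stages cannot reach 0.05 in this design, so their p says nothing about stability. Some of the 102 pair differences in the total left-out shares could not change. The replicate block alters only the p, and leaving out a library does not touch the pair formed by the other stages. All 102 kept their sign, which was fixed for those, but 12 moved by over 1.5-fold and 4 of these changed whether the libraries overlapped. They are differences of gastrulation from cellularization by TPM and of gastrulation from the syncytium. Beside those given above, components gave -0.509, 500 TPM -2.51 and the full contig length -3.05 percentage points for gastrulation minus cellularization by TPM. In every length class but that under 500 bases, the contigs' own length changed the order of the gastrulation and syncytium means. For 2000 bases and over the shares were 13.9% against 10.2%, then 6.72% against 8.18%. For 500 to under 1000 bases they were 6.37% against 7.03%, then 13.6% against 8.61%. For 1000 to under 2000 bases they were 9.81% against 8.25%, then 8.55% against 8.67%. In that last case the libraries of both stages overlapped. Members chosen on all 3 libraries are among the alternatives counted here. There the tested libraries made the choice, so those tests add no support. With the replicate block (stage labels permuted within a replicate number) the exact p of the left-out TPM share over the stages was 0.0833, against 0.0143 without it, and that of the count share was 0.0278, the smallest the block allows; the cause was not tested. Classed by each contig's own length, the exact p for 1000 to under 2000 bases was 0.0607. In the order syncytium, cellularization, gastrulation, a threshold of 500 TPM gave 243, 218 and 208 genes with 40.2%, 48.0% and 45.4% of TPM and 31.2%, 37.3% and 31.7% of counts. A threshold of 2000 TPM gave 35, 50 and 41 genes with 20.3%, 31.8% and 28.4% of TPM and 16.8%, 23.7% and 18.3% of counts. The mean Spearman coefficient was 0.989 at 500 TPM in the syncytium and 0.965 at 2000 TPM at gastrulation, and the median coefficient of variation at gastrulation was 5.42% at 500 TPM and 5.84% for count shares. Single contigs gave 27.8%, 37.2% and 35.4% of TPM and 20.4%, 26.5% and 22.2% of counts. Components gave 33.2%, 42.8% and 42.5% of TPM and 25.7%, 33.0% and 28.8% of counts. The full contig length gave 29.4% and 36.6% of TPM in the syncytium and at gastrulation, and contigs under 10 counts set to 0 gave 31.5%, 42.8% and 40.8%.

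Leaving out 1 library, the exact p of the left-out shares over the stages ranged from 0.00357 to 0.025 by TPM and by counts. The median coefficient of variation ranged from 2.11% to 3.55% in the syncytium, 5.09% to 14.4% at cellularization and 3.53% to 4.73% at gastrulation. The mean Spearman coefficient at cellularization ranged from 0.844 (without replicate 1) to 0.955. The number of dominant genes ranged from 106 to 107, 109 to 111 and 111 to 115. Each dominant gene had at least 2304 estimated counts in every library, which bounds counting error only; the part of library depth in the shares and in the assemblies was not tested.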
